A study of Equus caballus with 20 samples.

Results

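The genes described here act in mitosis, the stage of the cell cycle in which copied chromosomes are pulled into 2 daughter cells, and were measured by RNA sequencing in the epithelium of the mare's oviduct. A list of 42 genes of the mitotic spindle, the kinetochore and the regulators around them was matched by symbol to the 26740 features of the deposited table. Of these 42 genes 39 were found, and all 39 passed the filter on low values, which asked for more than 1 CPM (1 read per 1000000 reads of a library) in 5 or more libraries; MKI67, KIF4A and PTTG1 were not found under those symbols and are not analysed here. The list reaches beyond spindle and kinetochore: its 39 measured genes comprise 6 that act in entry into mitosis, 8 mitotic kinases and checkpoint proteins, 2 of anaphase, 7 of kinetochore and centromere, 10 spindle motors and microtubule proteins, 2 of the cell division furrow and 4 of chromosome structure.

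The 20 libraries came from Warmblood mares 4 days after ovulation, and from 1 site, the junction of ampulla and isthmus. There were 5 libraries each from pregnant mares on the side of ovulation (pregnant ipsilateral, PI), pregnant mares on the other side (pregnant contralateral, PC), cyclic mares on the side of ovulation (cyclic ipsilateral, CI) and cyclic mares on the other side (cyclic contralateral, CC). The series text calls the 5 libraries of a group biological replicates, and the labels do not say which libraries came from 1 mare. Libraries are named by group and replicate number, so that PC4 is the pregnant contralateral library numbered 4.

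A dividing cell enters mitosis when the kinase CDK1 is switched on by its B-type cyclins. Its chromosomes are condensed, microtubules of the spindle attach to the kinetochores built on each centromere, and a checkpoint holds the cell until every kinetochore is attached. The anaphase-promoting complex with CDC20 then marks securin and cyclin B for destruction, and a contractile furrow divides the cell. Most of these genes are transcribed mainly in cycling cells, in waves driven by FOXM1 and related factors, so in a mixed tissue their RNA is widely read as a sign of dividing cells. The oviduct epithelium consists of secretory and multiciliated cells, and multiciliated cells no longer divide; in mouse, parts of the mitotic machinery such as CDK1, PLK1 and the anaphase-promoting complex also act while multiciliated cells form.

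Library totals ran from 2795168 reads in PI1 to 10126484 in CI2, and 1 read was worth 0.585 (PC4) to 2.34 (PI1) normalized counts. Values are the authors' TMM-normalized counts, in which the reads of each library are multiplied by 1 factor. Markers of the labelled tissue were present in every library: FOXJ1, the master regulator of motile cilia, lay between 2774 and 6344 normalized counts, and PAX8, a transcription factor of the secretory cells, between 1410 and 2491. A single feature took more than 10% of the reads in 3 libraries, PI1 (14.4%), CI3 (15.4%) and PI4 (27.8%), and results that use them are also given without them. The B cell marker MS4A1 was at 0 in every library except PC3. In bulk RNA such as this, fewer cells of a kind and less RNA per cell cannot be told apart.

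The mitotic genes varied more between single libraries than between the 4 groups. The mean log2 level of the 39 genes, where a log2 level is log2 of normalized counts plus 3.03, was 6.13, 5.47, 7.10, 7.51 and 5.14 in PI1 to PI5, against 6.18, 6.61, 5.91, 5.52 and 6.66 in CI1 to CI5. On the other side it was 6.05, 6.21, 6.94, 7.94 and 5.67 in PC1 to PC5, against 4.49, 5.83, 5.79, 6.08 and 6.13 in CC1 to CC5. PC4, PI4, PI3 and PC3 were the 4 highest libraries, and CC1 was the lowest, below PI5. The 4 group means were 6.27 ± 1.02 in PI, 6.56 ± 0.90 in PC, 6.18 ± 0.48 in CI and 5.66 ± 0.67 in CC (SD, n = 5 each), so that the group means lay closer together than the libraries within the pregnant groups.

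**Figure D1:**
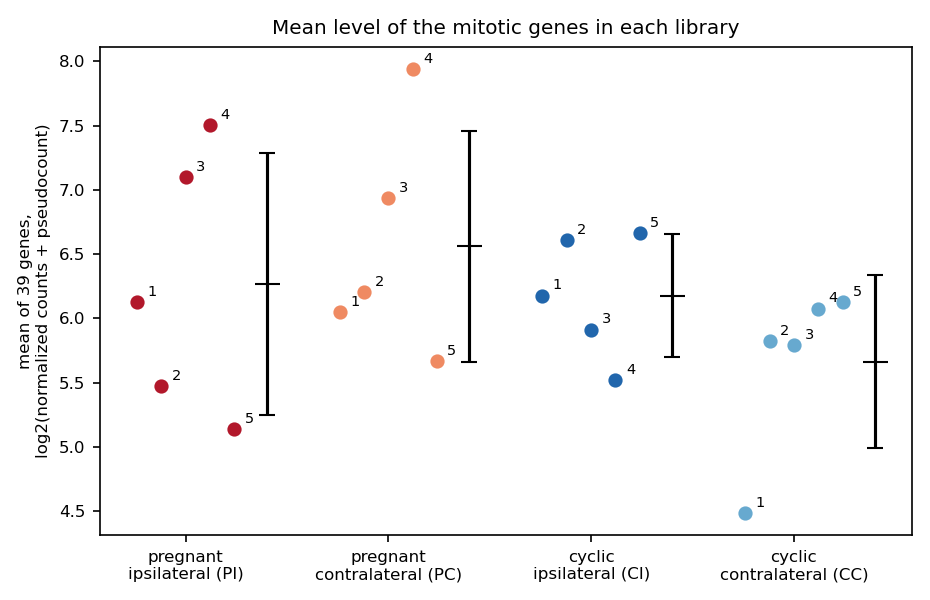
Mean log2 level of the 39 mitotic genes, as log2(normalized counts + pseudocount), in each library (points, numbered by replicate) with the group mean ± SD beside them (n = 5 each). PC4 is the highest point at 7.94 and CC1 the lowest at 4.49. PI4 (7.51), PI3 (7.10) and PC3 (6.94) also lie above every cyclic library, and the ranges of the remaining libraries overlap.

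The same ordering held gene by gene. PC4 was the highest of the 20 libraries for 35 of the 39 genes, where it was the highest for 12.1% of all 14692 features tested. PI4 was the highest for 3 others, FOXM1, PLK1 and CDC20, and CC4 for DLGAP5. For 24 of the 39 genes the 4 highest libraries were PC4, PI4, PC3 and PI3, a count not taken over all features. CC1 was the lowest library for 32 of the 39 genes, against 5.98% of all features. All 39 genes were above their own median over the 20 libraries in PC4 and in PI4, 38 in PI3, 38 in PC3 and 37 in CI5, whereas 1 gene was in CC1, 1 in PI5, 1 in CI4 and 2 in PI2. Of all features, 52.5% were above their own median in PC4, 46.7% in PI4, 49.0% in PI3, 50.7% in PC3 and 49.6% in CI5. That share was 47.9% in CC1, 46.7% in PI5, 49.5% in CI4 and 52.7% in PI2.

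As a share of all reads, the 39 genes together made up 2555 CPM in PC4 (95% exact Clopper-Pearson interval 2524 to 2586). The share was 1530 (1501 to 1561) in PI3, 1507 (1471 to 1544) in PI4 and 1307 (1278 to 1337) in PC3, and 305 (289 to 321) in CC1. These intervals cover counting error only, and they do not overlap between PC4 and any other library or between CC1 and any other library. The shares are of all reads, of which a single feature took 27.8% in PI4 and 1.27% in PI3. Summed as TMM-normalized counts, the 39 genes had 14957 in PC4, 11164 in PI4, 8480 in PI3, 7757 in PC3 and 1818 in CC1. Without CDC20 and SMC4 the share was 2158 CPM in PC4, 1201 in PI3, 1194 in PI4, 1019 in PC3 and 151 in CC1. Depth is set beside these shares here, and its part in the order was not tested. CI2 and CC2, with 10126484 and 9849146 reads, were about as deep as PC4 with 10015464, and their shares were 1063 and 571 CPM. CC1, with 4527135 reads, was deeper than PI4 with 4415169. Low counts still limit CC1, where 8 of the genes had 3 reads or fewer and BIRC5, an inhibitor of apoptosis that is part of the chromosomal passenger complex, had 0.

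**Figure D2:**
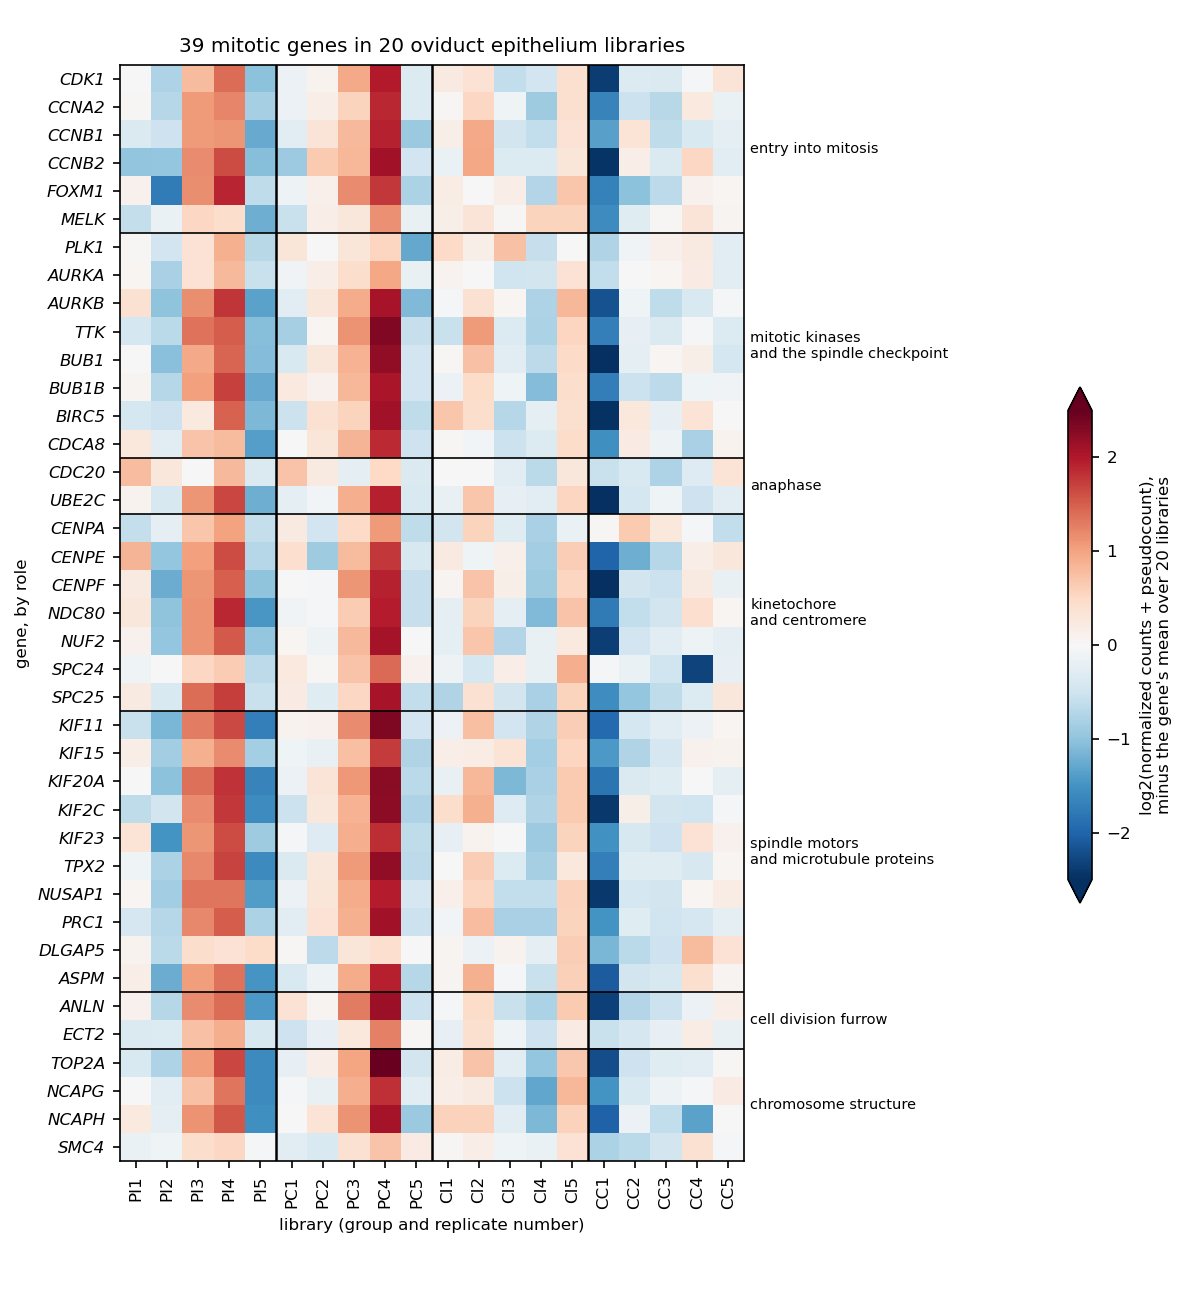
Each of the 39 mitotic genes (rows, by role) in each of the 20 libraries (columns, by group), coloured by log2(normalized counts + pseudocount) minus the gene's own mean over the libraries; the scale is cut at its ends, past which 3 values of CC1 lie. PC4, PI4, PC3 and PI3 are red in nearly every row and CC1 is blue, while the rows of CDC20, DLGAP5, CENPA, PLK1 and SMC4 are paler.

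Between the highest and the lowest library the genes spanned a median of 3.76 on the log2 scale, against 1.48 for all features. The widest was BUB1, a kinase of the spindle checkpoint, with 271 normalized counts in PC4 and 6.59 in CC1, a span of 4.83. It was followed by TOP2A at 4.68, KIF2C at 4.66 and BIRC5 at 4.57, each again with PC4 at the top and CC1 at the bottom. A group of 8 genes spanned less than 3 on the log2 scale, namely SMC4 (1.499), CDC20 (1.58), AURKA (1.79), ECT2 (1.801), CENPA (1.88), DLGAP5 (1.92), PLK1 (2.18) and MELK (2.72). Of these, CENPA rested on few reads, with levels of 14.0 normalized counts in PC4 and 1.60 in CI4, so its narrow span is that of a gene near the floor.

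Of the genes for entry into mitosis, CDK1, the kinase that drives it, is given first. CDK1 had 53.9, 30.1, 95.05, 146 and 24.8 normalized counts in PI1 to PI5, against 63.7, 69.7, 34.2, 37.6 and 71.8 in CI1 to CI5. On the other side it had 48.4, 57.5, 106, 222 and 42.1 in PC1 to PC5, against 7.91, 42.1, 41.3, 51.8 and 67.8 in CC1 to CC5. PI3 and PI4 lay above every CI library while PI2 and PI5 lay below every one. PC3 and PC4 lay above every CC library, and the other PC libraries fell inside the CC range, whose low end was CC1. CCNB1, the B-type cyclin that activates CDK1, had 42.2, 37.9, 119, 122 and 21.3 normalized counts in PI1 to PI5, against 61.8, 109, 39.6, 35.2 and 71.8 in CI1 to CI5. It had 45.2, 69.8, 98.9, 219 and 27.7 in PC1 to PC5, against 19.8, 70.8, 34.5, 41.7 and 46.0 in CC1 to CC5. Replicates 3 and 4 of both pregnant groups were again above all cyclic libraries of their side, and the rest overlapped with them except PI5, which was below all CI libraries.

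FOXM1, the transcription factor that switches on many genes of this list, had 39.8, 8.75, 86.6, 146 and 22.4 normalized counts in PI1 to PI5, against 42.5, 36.4, 41.4, 20.8 and 61.1 in CI1 to CI5. It had 33.4, 40.5, 87.4, 132 and 19.95 in PC1 to PC5, against 9.22, 16.5, 22.1, 40.1 and 37.9 in CC1 to CC5. PI4 was its highest library and PI2 its lowest. PC2, PC3 and PC4 were above every CC library, PC2 only just. MELK, a kinase found in dividing and stem-like cells, had 46.9, 64.2, 105, 99.0 and 29.5 normalized counts in PI1 to PI5, against 80.1, 91.8, 73.8, 108 and 108 in CI1 to CI5. It had 48.4, 82.0, 88.5, 164 and 63.2 in PC1 to PC5, against 22.4, 58.0, 73.9, 91.8 and 75.9 in CC1 to CC5. MELK differed from the other entry genes on the ovulation side, where PI1, PI2 and PI5 were below every CI library and no PI library was above all of them. PC4 alone was above every CC library.

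Among the mitotic kinases, PLK1, which acts at centrosomes, kinetochores and the furrow, had 68.0, 46.7, 86.6, 126 and 40.2 normalized counts in PI1 to PI5, against 94.6, 73.9, 113, 44.0 and 66.4 in CI1 to CI5. It had 82.9, 66.0, 83.3, 98.8 and 25.5 in PC1 to PC5, against 38.2, 62.9, 72.9, 78.5 and 55.2 in CC1 to CC5. CC1 was not its lowest library: that was PC5, which lay below every CC library, while PC1, PC3 and PC4 lay above every one. AURKB, the kinase of the chromosomal passenger complex that corrects faulty attachments, had 30.5, 9.72, 54.3, 85.6 and 7.09 normalized counts in PI1 to PI5, against 22.2, 30.4, 23.4, 12 and 42.9 in CI1 to CI5. It had 18.3, 28.3, 45.8, 105 and 8.87 in PC1 to PC5, against 2.64, 20.7, 13.4, 16.7 and 21.8 in CC1 to CC5. PI3 and PI4 were above and PI2 and PI5 below all CI libraries, and PC2, PC3 and PC4 were above all CC libraries.

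BUB1, which brings checkpoint proteins to the kinetochore, had 56.2, 25.3, 110.3, 158 and 24.8 normalized counts in PI1 to PI5, against 57.0, 94.8, 45.0, 34.4 and 78.2 in CI1 to CI5. It had 42.0, 68.8, 104, 271 and 38.8 in PC1 to PC5, against 6.59, 46.4, 57.6, 61.8 and 40.2 in CC1 to CC5. PC4 stood far above the other PC libraries and CC1 far below the other CC libraries, with PC2 and PC3 above and PC1 and PC5 among the CC values. Both genes of anaphase act with the anaphase-promoting complex, CDC20 as its activator and UBE2C as the enzyme that supplies ubiquitin to it. CDC20 had 942, 674, 547, 966 and 431 normalized counts in PI1 to PI5, against 548, 559, 457, 346 and 674 in CI1 to CI5. It had 905, 647, 470.4, 776 and 427 in PC1 to PC5, against 373, 425, 321, 441 and 698 in CC1 to CC5. CDC20 had another order of libraries than the other genes: PI1 and PC1 stood with PI4 and PC4 at the top, above all cyclic libraries of their side, PC3 and PI3 were inside the cyclic range and CC3, not CC1, was the lowest. UBE2C had 42.2, 29.2, 88.3, 133 and 15.4 normalized counts in PI1 to PI5, against 34.8, 66.2, 34.2, 32.0 and 58.9 in CI1 to CI5. It had 33.4, 37.7, 77.0, 161 and 29.9 in PC1 to PC5, against 3.95, 28.7, 36.5, 26.7 and 32.2 in CC1 to CC5. PC2, PC3 and PC4 were above all CC libraries and CC1 was far below the others.

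Of the kinetochore genes, NDC80 codes for the part of the NDC80 complex that grips microtubules. It had 42.2, 15.6, 78.1, 134 and 10.6 normalized counts in PI1 to PI5, against 29.0, 51.9, 28.8, 14.4 and 57.9 in CI1 to CI5. It had 32.3, 33.0, 55.2, 143 and 22.2 in PC1 to PC5, against 7.91, 21.4, 23.99, 46.8 and 35.6 in CC1 to CC5. PC4 had more than double the level of PC3, the next PC library, and PC1, PC2 and PC5 lay inside the CC range. SPC24 and SPC25 form the other end of the same complex, which binds the inner kinetochore. SPC24 had 18.7, 20.4, 30.6, 33.5 and 11.8 normalized counts in PI1 to PI5, against 18.3, 14.3, 23.4, 17.6 and 40.7 in CI1 to CI5. It had 24.8, 20.7, 35.4, 59.6 and 22.2 in PC1 to PC5, against 19.8, 17.7, 13.4, 1.67 and 17.2 in CC1 to CC5. Every PC library was above every CC library for SPC24, by a small margin between PC2 and CC1, and the low end of the CC range was CC4, whose value is that of 1 read. SPC25 had 16.4, 9.72, 40.7, 52.0 and 8.27 normalized counts in PI1 to PI5, against 6.76, 18.5, 9.005, 6.40 and 21.4 in CI1 to CI5. It had 16.1, 10.4, 20.8, 66.1 and 7.76 in PC1 to PC5, against 2.64, 5.49, 7.68, 10.02 and 17.2 in CC1 to CC5. PI3 and PI4 were above every CI library with no PI library below them all, and PC3 and PC4 were above every CC library.

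CENPF, a large protein of the outer kinetochore, had 529.6, 189.6, 969, 1277 and 223 normalized counts in PI1 to PI5, against 469, 742, 501, 242 and 656 in CI1 to CI5. It had 447, 436, 968, 1707 and 299 in PC1 to PC5, against 72.5, 325, 308, 524 and 394 in CC1 to CC5. The pattern was that of CDK1, with replicates 3 and 4 of both pregnant groups at the top. KIF11, the motor that pushes spindle poles apart, had 77.3, 50.6, 282, 369 and 33.1 normalized counts in PI1 to PI5, against 103, 196, 81.0, 66.4 and 178 in CI1 to CI5. It had 123, 123, 263, 588 and 80.9 in PC1 to PC5, against 27.7, 83.6, 95.01, 104 and 118 in CC1 to CC5. Every PC library except PC5 was above every CC library, PC1 and PC2 narrowly. ANLN, anillin, a scaffold of the contractile furrow, had 84.4, 46.7, 182, 209.7 and 27.2 normalized counts in PI1 to PI5, against 75.3, 108, 52.2, 44.0 and 125 in CI1 to CI5. It had 101, 82.0, 198, 354 and 53.2 in PC1 to PC5, against 13.2, 45.8, 52.8, 70.1 and 88.5 in CC1 to CC5. For ANLN, PC1, PC3 and PC4 were above all CC libraries and PI3 and PI4 above all CI libraries.

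TOP2A, the topoisomerase that untangles sister chromosomes, had 239, 179.9, 648, 1003 and 102 normalized counts in PI1 to PI5, against 356, 509, 258, 158 and 498 in CI1 to CI5. It had 269, 348, 618, 1728 and 225 in PC1 to PC5, against 64.6, 216, 251, 259 and 318 in CC1 to CC5. PC2, PC3 and PC4 were above all CC libraries, with PC4 far above the others, and CC1 was far below. NCAPH, a subunit of condensin I, had 56.2, 38.9, 106, 143 and 14.2 normalized counts in PI1 to PI5, against 71.5, 71.5, 37.8, 20 and 71.8 in CI1 to CI5. It had 47.4, 60.3, 106, 209 and 23.3 in PC1 to PC5, against 9.22, 42.1, 29.7, 16.7 and 47.1 in CC1 to CC5. Every PC library except PC5 was above every CC library, PC1 by a narrow margin.

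In the contralateral oviduct, the 39 mitotic genes were all higher in pregnant than in cyclic mares, with a median log2 difference (PC minus CC) of 1.01, which is about a doubling, but none passed the test. The limma model, fitted to the log2 levels of all 20 libraries with Benjamini-Hochberg adjustment over all features, called 0 of 14692 features at 0.05 (0%), and the adjusted p of every mitotic gene was 0.9998. A log2 difference above 0 was found for 39 of 39 genes and for 51.8% of all features, whose median was 0.0092. The differences ran from 0.070 (CENPA, the histone that marks the centromere) to 1.38 (ANLN). A difference of at least 1 was reached by 20 of the 39 genes, against 1.75% of all features. At an unadjusted p under 0.05 there were 9 mitotic genes, all higher in PC, against 2.75% of all features higher in PC; 669 features in all were under that limit in either direction. Only NUF2 and SPC24, partners in the NDC80 complex, had PC libraries that did not overlap with the CC libraries, against 0.313% of all features with PC above CC. NUF2 had 26.9, 23.6, 47.9, 119 and 25.5 normalized counts in PC1 to PC5, against 2.64, 17.7, 21.1, 23.4 and 21.8 in CC1 to CC5, so that PC2 and CC4 nearly touched.

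The smallest unadjusted p was that of SPC24, whose log2 difference (PC minus CC) was 1.15 ± 0.41 (SE), with means of 32.5 ± 16.2 normalized counts in PC and 14.0 ± 7.24 in CC (SD, n = 5 each). Without CC4, whose value rests on 1 read, it was 0.73. ANLN differed by 1.38 ± 0.56 and NCAPH by 1.35 ± 0.58. Of the other genes given by library, TOP2A differed by 1.24 ± 0.60, UBE2C by 1.23 ± 0.54, CENPF by 1.19 ± 0.57, KIF11 by 1.19 ± 0.60 and BUB1 by 1.12 ± 0.58. CDK1 differed by 1.07 ± 0.52, FOXM1 by 1.08 ± 0.58, AURKB by 1.05 ± 0.61, NDC80 by 0.86 ± 0.59 and CCNB1 by 0.83 ± 0.50. PLK1 stood apart with 0.12 ± 0.34. All 5 PC libraries were above the lowest CC library for each of these genes except PLK1. That lowest library was CC1, or CC4 for SPC24, so this says nothing about the other CC libraries.

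By role, the median log2 difference between PC and CC was 0.95 for entry into mitosis, 0.94 for kinases and checkpoint, 1.04 for kinetochore and centromere, 1.06 for spindle motors and microtubule proteins and 1.03 for chromosome structure. Among the spindle genes, the differences lay between 0.25 for DLGAP5, which stabilises microtubules near chromosomes, and 1.19 for KIF11. BUB1B, the checkpoint partner of BUB1, differed by 1.17 ± 0.51 and PRC1, which bundles the microtubules of the central spindle, by 1.11 ± 0.51. ECT2, which sets off the furrow, differed by 0.40 ± 0.31, beside the 1.38 of ANLN.

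PC4 and CC1 were extreme for these same genes, so leaving them out had to shrink the median contralateral difference. The fits without them show only by how much, and are no test. PC4 lay above the median of the other 4 PC libraries for 39 of 39 genes, by a median of 1.93 on the log2 scale, from 0.40 for DLGAP5 to 2.57 for TTK, the checkpoint kinase also known as MPS1. The same measure over all features had a median of 0.031. CC1 lay below the median of the other 4 CC libraries for 38 of 39 genes, by a median log2 difference of -1.51, from -2.60 for BIRC5 to 0.32 for SPC24. Without PC4 the genes' median difference between PC and CC was 0.62, without CC1 it was 0.65, and without either it was 0.25, with 34 of 39 genes still above 0. An unadjusted p under 0.05 was then left for 1 of the 39 genes in each case, against 2.42% of all features without PC4, 3.3% without CC1 and 2.15% without either.

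**Figure D3:**
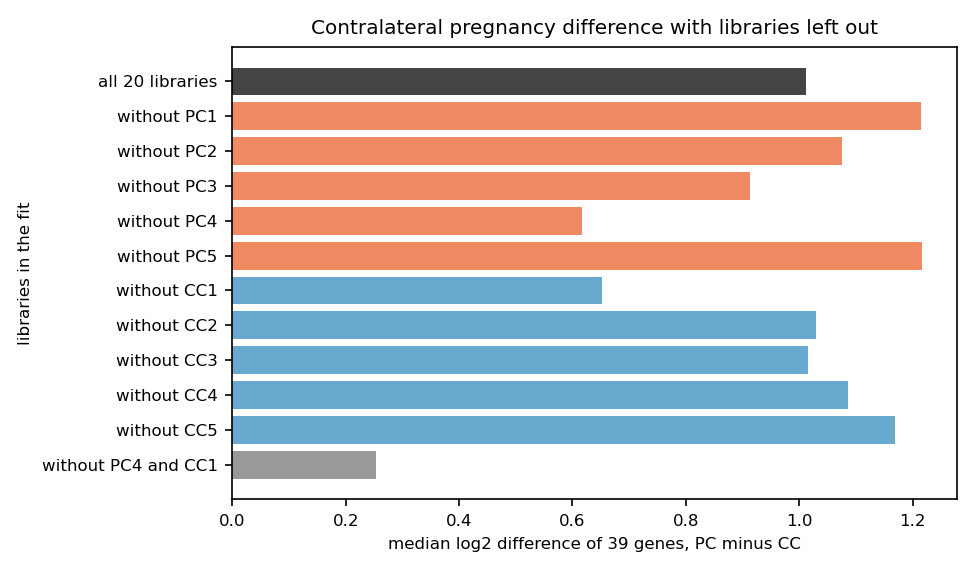
Median log2 difference of the 39 mitotic genes between pregnant and cyclic contralateral libraries (PC minus CC, horizontal axis) in the fit of all 20 libraries (dark bar), without each PC or CC library in turn, and without both PC4 and CC1 (grey bar). The bar is 1.01 with all libraries, 0.62 without PC4, 0.65 without CC1 and 0.25 without both.

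On the side of ovulation, no mitotic gene passed the test between pregnant and cyclic mares, and the differences went in both directions. The median log2 difference (PI minus CI) was 0.10, against -0.011 for all features, and 29 of 39 genes were above 0, against 48.1% of all features. The limma model called 0 of 14692 features (0%), and 0 of the 39 genes had an unadjusted p under 0.05, where 1.5% of all features had one and were higher in PI. In either direction 514 features were under that limit. The differences lay between -0.53 ± 0.37 (SE) for MELK and 0.71 ± 0.52 for SPC25, with CDC20 at 0.43 ± 0.26. TOP2A, with a mean level of 434 ± 382 normalized counts over the PI libraries and 356 ± 152 over the CI libraries (SD, n = 5 each), had a log2 difference of -0.071 ± 0.60. The SD of normalized counts was larger in PI than in CI for 38 of the 39 genes, SPC24 being the exception. This count was not taken over all features, so it cannot be read as particular to the mitotic genes. Most of the genes also rose and fell together in the same PI libraries, so they are not separate observations. The mean over the genes was high in PI3 and PI4 and low in PI2 and PI5, an order that CDC20 did not share.

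The median difference between PI and CI changed sign with the libraries used. It was -0.20 without PI4, with 4 of 39 genes above 0, 0.41 without PI5, and -0.38 when the 3 libraries with a dominant feature were left out. It was also 0.36 with edgeR (36 of 39 genes above 0), 0.38 with DESeq2 (37), 0.32 with library weights (37), 0.24 with log2 reads as a covariate (35) and 0.053 with CPM without TMM (26), and -0.12 with the leukocyte level as a covariate (8 of 39 above 0).

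**Figure D4:**
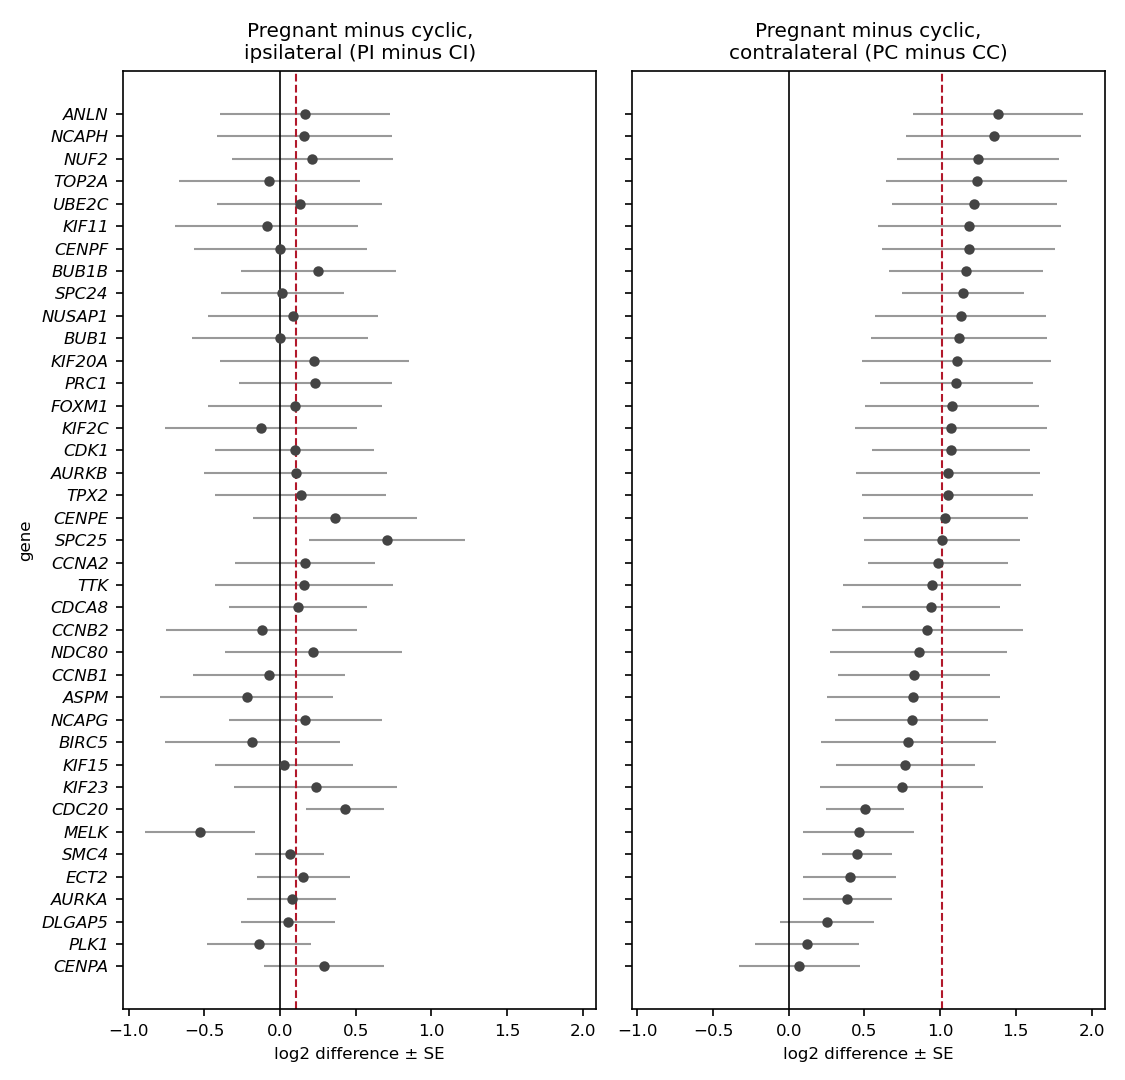
Log2 difference ± SE of each mitotic gene between pregnant and cyclic mares, on the side of ovulation (left, PI minus CI) and on the other side (right, PC minus CC), with the median of the 39 genes as a dashed line. On the left the genes lie between -0.53 and 0.71 around a median of 0.10, and on the right between 0.070 and 1.38 around a median of 1.01; none passed the test on either side.

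Whether pregnancy moved the genes differently on the 2 sides was tested as the interaction, the PI minus CI difference less the PC minus CC difference. It was below 0 for 38 of 39 genes, against 56.6% of all features, with a median of -0.91, and 0 of 14692 features were called by limma (0%). The smallest unadjusted p among the genes was that of SPC24, with -1.14 ± 0.57 (SE), and the largest size was that of TOP2A, with -1.31 ± 0.85. An effect that differs between the sides was thus not shown for any of the genes. The median interaction was -0.17 without PC4 and CC1, and -1.32 without PI1, PI4 and CI3.

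Between the sides of pregnant mares, 34 of 39 genes were below 0 in PI minus PC, against 55.4% of all features, with a median of -0.36 and a range from -0.73 (KIF11) to 0.13 (CDC20). limma called 0 of 14692 features (0%). Same-numbered pregnant libraries deviated together over all features, so they can be set side by side. In a limma fit paired by number, 1 of 39 genes had an unadjusted p under 0.05, against 3.16% of all features. Without the pairing it was 0 genes, against 0.762% of all features. The paired fit took its estimate of spread from cyclic libraries paired by number as well, a pairing that held for only part of the cyclic numbers. PI1 against PC1 had 27 of 39 genes higher on the side of ovulation with a median log2 difference of 0.14, and PI3 against PC3 had 30 with 0.19. PI2 against PC2 had 3 genes higher, with a median of -0.83, PI4 against PC4 had 3 with -0.48 and PI5 against PC5 had 6 with -0.58. Of all features, 43.6% (number 4) to 49.4% (number 2) were higher on the side of ovulation. The medians over all features ran from -0.069 (number 4) to -0.0028 (number 2). The number 4 libraries were thus high on either side and the number 5 libraries low, and the sides did not differ in 1 direction over the 5 numbers. The median of PI minus PC was 0.04 without PC4, and -0.75 without PI1, PI4 and CI3.

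Between the sides of cyclic mares, 38 of 39 genes were above 0 in CI minus CC, against 51.4% of all features, with a median of 0.54; CENPA was the exception at -0.30 ± 0.40 (SE). limma called 0 of 14692 features (0%). The largest difference was that of UBE2C, 0.91 ± 0.54, and CENPF differed by 0.83 ± 0.57. The median of CI minus CC was 0.22 without CC1 and 0.67 without PI1, PI4 and CI3. The 4 differences between groups share libraries, PC4 and CC1 in 2 of them each, and are not independent of each other.

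Other genes of mitosis followed the same contralateral pattern at smaller size. In a list of 72 further mitotic genes, 64 passed the filter, and all 64 were higher in PC than in CC, with a median log2 difference of 0.61 and 0 called by limma. Of them 6 had an unadjusted p under 0.05, all higher in PC, against the 2.75% of all features given above. In fits chosen after seeing the data, the median of the 64 genes was 0.36 without PC4, 0.46 without CC1 and 0.22 without either, with 54 of 64 still higher in PC. CENPM, a protein of the inner kinetochore, had 6.46, 14.1, 25.0, 35.1 and 9.98 normalized counts in PC1 to PC5, against 0, 7.93, 10.6, 1.67 and 0 in CC1 to CC5. Its log2 difference was 1.69 ± 0.47 (SE) with an adjusted p of 0.970 in limma, and it rests on few reads, with CC1 and CC5 at 0. NCAPD2, a subunit of condensin I like NCAPH, had 171, 231, 287, 603 and 127 in PC1 to PC5, against 59.3, 180.0, 123, 147 and 154 in CC1 to CC5, a difference of 0.96 ± 0.42. TACC3, which binds the spindle's microtubules, had 151, 159, 211, 525 and 101 in PC1 to PC5, against 36.9, 168, 104, 91.8 and 118 in CC1 to CC5, a difference of 1.03 ± 0.46. PC2, PC3 and PC4 were above all CC libraries for NCAPD2, and PC3 and PC4 for TACC3, and CC1 was the lowest library for both. On the side of ovulation, 40 of the 64 genes were higher in PI than in CI, with a median of 0.081.

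The genes of DNA replication, which precedes mitosis, were higher in PC than in CC in 26 of 27 cases with a median log2 difference of 0.46 (0.27 without PC4, 0.23 without PC4 and CC1), and in PI than in CI in 18 of 27 cases with a median of 0.049. Genes of cell cycle arrest, among them CDK inhibitors and RB1, were higher in PC than in CC in 10 of 17 cases with a median of 0.097, and in PI than in CI in 9 of 17 with a median of 0.014. These tallies stand beside 51.8% of all features higher in PC and 48.1% higher in PI. PC4 had the highest mean log2 level of the 20 libraries in each of the lists of further mitotic genes (7.13), replication genes (7.75) and arrest genes (7.42). limma called none of the genes of these lists in any of the 5 comparisons.

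Markers of leukocytes stood out together with the mitotic genes in PC4 and PI4. In PI3 and PC3 they were close to those of PI2, whose mitotic level was low. The mean log2 level of 11 general leukocyte markers was highest in PC4 at 7.58, then 7.31 in CI1, 7.11 in PI4, 6.54 in PI3, 6.48 in PI2 and 6.44 in PC3. It was lowest in PI5 at 5.32, followed by 5.37 in CI4, 5.48 in CC4 and 5.51 in both CI3 and CC1. CI1 and PI2 had high leukocyte markers with mitotic levels of 6.18 and 5.47, CI5 had the fifth highest mitotic level, 6.66, with leukocyte markers at 5.77, and CC4 had a mitotic level of 6.08 with low leukocyte markers. The summed level of the 11 markers ranged from 563 to 1922 normalized counts in PI, from 929 to 2990 in PC, from 567 to 2347 in CI and from 626 to 1184 in CC.

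**Figure D5:**
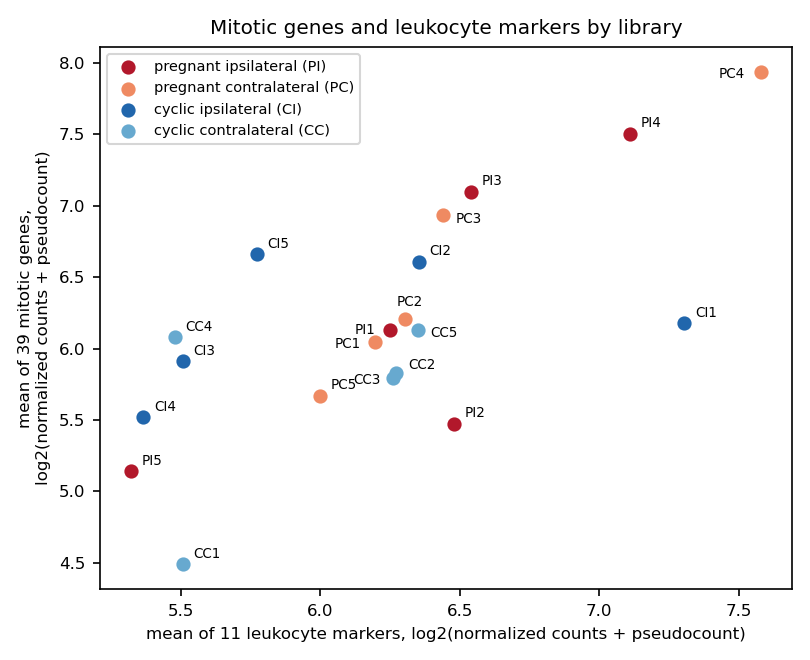
Mean log2 level of the 39 mitotic genes (vertical axis) against that of 11 general leukocyte markers (horizontal axis), both as log2(normalized counts + pseudocount), for each of the 20 libraries, coloured by group. PC4 is highest on both axes, CI1 is at 7.31 for leukocyte markers and 6.18 for the mitotic genes, and CC1 is at 5.51 and 4.49.

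The 11 leukocyte markers were all higher in PC than in CC, with a median log2 difference of 0.56, and 18 of 19 markers of T and NK cells were higher, with a median of 0.88; none was called by limma. Without PC4 these medians were 0.23, with 9 of 11 higher, and 0.56, with 18 of 19 higher. PTPRC, the pan-leukocyte surface protein CD45, had 268, 231, 258, 704 and 218 normalized counts in PC1 to PC5, against 125, 164, 187, 172 and 259.8 in CC1 to CC5. CD3E, part of the T cell receptor complex, had 28.0, 24.5, 31.2, 92.4 and 17.7 in PC1 to PC5, against 13.2, 22.0, 12.5, 13.4 and 25.3 in CC1 to CC5. PC4 was again the highest library for each, with the other PC libraries close to or inside the CC range. The myeloid marker CD14 had 10.8, 11.3, 15.6, 21.6 and 11.1 in PC1 to PC5, against 14.49, 31.1, 16.3, 5.01 and 8.05 in CC1 to CC5, with the highest value in CC2. CD14 did not follow its list: over 13 markers of macrophages, monocytes and dendritic cells the mean log2 level was highest in PC4 at 7.06, next in CC2 at 6.77, and 10 of 13 were higher in PC than in CC with a median of 0.19, against 5 of 13 with a median of -0.078 without PC4. With the leukocyte level as a covariate, the median difference of the mitotic genes between PC and CC was 0.47, with 37 of 39 genes above 0. An unadjusted p under 0.05 in limma was then left for 1 of the 39 genes, against 3.28% of all features. Without the covariate it was 9 genes, against 4.55% of all features. Whether leukocytes carried the mitotic transcripts was not tested.

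Markers of the epithelial cell types varied less between libraries than the mitotic genes. The mean log2 level of 20 multiciliated cell markers lay between 9.68 (CC4) and 10.39 (PI1), with 10.24 in PC4 and 9.91 in CC1, and 19 of the 20 were higher in PC than in CC, with a median of 0.29. Of 10 secretory cell markers, 6 were higher in PC than in CC with a median of 0.17; their mean log2 level was 8.45 in PC4 and 8.67, the highest of all libraries, in CC1. FOXJ1 had 4534, 5964, 4776, 6096 and 3707 normalized counts in PC1 to PC5, against 4436, 4661, 4648, 2774 and 3586 in CC1 to CC5. PAX8 had 1668, 1891, 1867, 1444 and 1563 in PC1 to PC5, against 1929, 1539, 1691, 2149 and 1410.2 in CC1 to CC5. For FOXJ1 and PAX8 the groups overlapped and neither PC4 nor CC1 stood apart as they did for the mitotic genes. Of 19 markers of stromal fibroblasts, 3 were higher in PC than in CC, with a median of -0.35. COL1A1, their main collagen, had 121, 162, 639, 251 and 127 normalized counts in PC1 to PC5, against 203, 1048, 596, 130.3 and 75.9 in CC1 to CC5, and was high in PC3 and CC2, not in PC4. The other marker lists were higher in PC than in CC in 1 of 6 cases for B and plasma cells (median -0.15, and 0.00019 without PC4), 6 of 9 for smooth muscle (0.11), 5 of 8 for endothelial cells (0.067, and -0.024 without PC4) and 7 of 11 for regulators of multiciliogenesis, the making of multiciliated cells (0.20, and 0.084 without PC4).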

How the data were processed

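RNA from oviduct epithelium was sequenced in 20 libraries, 5 in each of 4 groups. Total RNA and a stranded kit with removal of ribosomal RNA were used per the labels' protocols, although the molecule label says polyA. The submitters' processing notes name CASAVA 1.8. Aligner, read counter, strand setting, build and annotation were not given in the sources used here. Overlapping and antisense genes are therefore uncertain, and no coordinates or sequences are printed.

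The authors deposited 1 table of TMM-normalized counts, a signal per gene in which each library's counts are multiplied by 1 factor. Values in a column were whole multiples of the smallest, so whole reads were recovered for 100% of values within 0.01 reads. The members and gene lists were chosen with earlier results of these data known. Of the 20350 features with reads, 14692 exceeded 1 CPM (reads per 1000000) in 5 or more libraries and were tested. Tests used the log2 of the deposited values with 0.5 CPM (3.03 normalized counts) added as pseudocount, so differences understate the change of low genes. limma 3.58.1 in R 4.3.3 fitted 4 group means to all 20 libraries with trend and robust moderation, 2-sided, with Benjamini-Hochberg adjustment over all features kept and a threshold of 0.05. Each of the 40 pairs of replicates differed beyond the noise of counting, with chi-square over degrees of freedom of 16.9 to 143. A value of 0 allows up to 3 reads, or between 1.75 and 7.03 normalized counts by library.

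Values by library are given for 11 measured genes chosen by role, and for the 3 with the smallest p in PC minus CC and in PI minus CI. Replicate numbers pair the pregnant libraries: the deviations of PI and PC libraries of 1 number from their group means correlated at 0.53 to 0.70 over features, each best with its own number. Alternatives were edgeR 4.0.16 and DESeq2 1.42.0 on the recovered counts, other scalings, filters, pseudocounts and covariates, a replicate block, library weights and left-out libraries.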

Additional observations from a re-analysis of the deposited data

Results flagged for a closer look

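Of 72 sets of 5 values checked for a library far from the others, 5 were picked out. Chance picks out about 1 set in 20 where sets are independent and values follow a normal distribution. The sets here share libraries and genes that move together, and the gene values are not on the log2 scale. The count picked out can therefore not be set against that rate. PC4 stood apart from the other PC libraries for 4 genes. It had 271 normalized counts of BUB1 with 104 in the next library, 143 of NDC80 with 55.2 in the next, 1728 of TOP2A with 618 in the next, and 66.1 of SPC25 with 20.8 in the next. In each case the next library was PC3. The mean log2 level of the 39 mitotic genes in CC1 was 4.49, apart from the other CC libraries, of which the nearest was at 5.79.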

How the results depend on the processing

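No mitotic gene was called in any of the 5 comparisons under any alternative. The count of all features called between PC and CC was 0 in the limma fit, 1 with CPM without TMM, 12 with DESeq2, 6 with library weights and 1 with log2 reads as a covariate; edgeR called 0. DESeq2 gave a median log2 difference (PC minus CC) of 1.17 and edgeR of 1.18 for the mitotic genes, with 25 and 23 at an unadjusted p under 0.05, against 9 in limma; of all features 6.47%, 5.7% and 4.55% were under it. With libraries left out one at a time, this median ran from 0.62 to 1.22. With log2 reads as a covariate in limma it was 0.89. An unadjusted p under 0.05 was then left for 2 mitotic genes, against 7.49% of all features. PLK1 reversed: its difference between PC and CC ran from -0.031 (without CC1; -0.024 without PC4) to 0.44, and was -0.18 without PC4 and CC1 and -0.15 with the leukocyte covariate. MELK was -0.10 without PC4 and CC1. The cause was not tested. With a replicate block 0 features were called in each comparison and the medians did not move, at 1.01 for PC minus CC; 14 mitotic genes had an unadjusted p under 0.05 there, 11 in CI minus CC and 15 in the interaction, while the share of all features was 6.64%, 1.63% and 1.82%, against 4.55%, 0.286% and 0.32% without the block. Cyclic numbers met the pairing check only in part. CI1, CI2 and CI5 correlated best with the CC library of their own number (0.295, 0.68 and 0.62). CI3 and CI4 did not (0.023 and -0.041). The block counts in CI minus CC and in the interaction thus rest on a pairing that was only partly borne out. The block fit of PI minus PC also drew its estimate of spread from these cyclic pairs. For PC minus CC the block joined pregnant and cyclic libraries of the same number, which no label pairs. Their deviations correlated at -0.396 (PC4 with CC4) to 0.488 (PC2 with CC2). The median of PI minus PC was -0.13 with library weights, -0.17 with log2 reads and -0.20 with the leukocyte level as covariate. The interaction has no value in a fit of 2 groups. Few reads limit CENPA and the genes of CC1.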
